A study of Mus musculus with 12 samples.

Results

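A set of 10 genes of the male and female germline was followed in mouse embryonic stem (ES) cells, cultured cells of the early embryo, with and without Drosha, the nuclear enzyme that releases microRNA hairpins from their primary transcripts. They are Dazl, Ddx4, Mael, Sycp1, Sycp3, Asz1, Slc25a31, Rpl10l, D1Pas1 and Tex101. The genes were chosen by name, and all 10 had a row among the 36883 rows of the mRNA and of the long RNA table. They and the other gene lists counted below were chosen with earlier results of these data known. Both genotypes, wild type and Drosha-deficient, were grown in medium with serum and leukemia inhibitory factor. Each genotype gave 1 library of poly(A)-selected mRNA and 1 of long RNA. Where a pair of levels is given, wild type comes first. The labels of the methylation samples name the wild-type line AB1 of 129Sv/Ev background and say that the Drosha-deficient cells derive from AB1; the RNA labels give the genotype only, and neither how Drosha was inactivated nor the number of clones is stated. Without replicates no difference has a replicate check, so differences are described by size only.

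Germline genes of this kind carry CG-rich promoters that DNA methyltransferases methylate in the embryo, when cells take on a somatic fate. The methyl marks, together with a Polycomb complex that contains E2F6, MGA, MAX and PCGF6, keep the genes off in body tissues, and loss of DNA methylation turns many of them on. The series concerns Drosha in the upkeep of CG methylation, and these genes give its RNA side. Methylation itself was not analysed here.

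In Drosha-deficient cells Rpl10l and D1Pas1 were higher than in wild type in both fractions, Sycp3 was lower in mRNA, and no other member was called. A gene was called higher or lower at a 2-fold difference on the log2(FPKM + 1) scale, where FPKM is fragments per kilobase of transcript, scaled to the size of the library, if 1 FPKM was reached in at least 1 library and the authors had marked the row as testable. In mRNA 9 of the 10 members could be compared: 2 were higher and 1 was lower. Over all 14752 rows compared, 8.64% were higher and 7.93% were lower. In long RNA 8 members could be compared, of which 2 were higher and none lower, beside 6.26% and 6.89% of 13933 rows. The median log2 difference of the members was -0.12 in mRNA and 0.034 in long RNA. All rows compared had medians of 0.0081 and -0.042. The counts are small, and nothing particular to these genes follows from them.

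**Figure D1:**
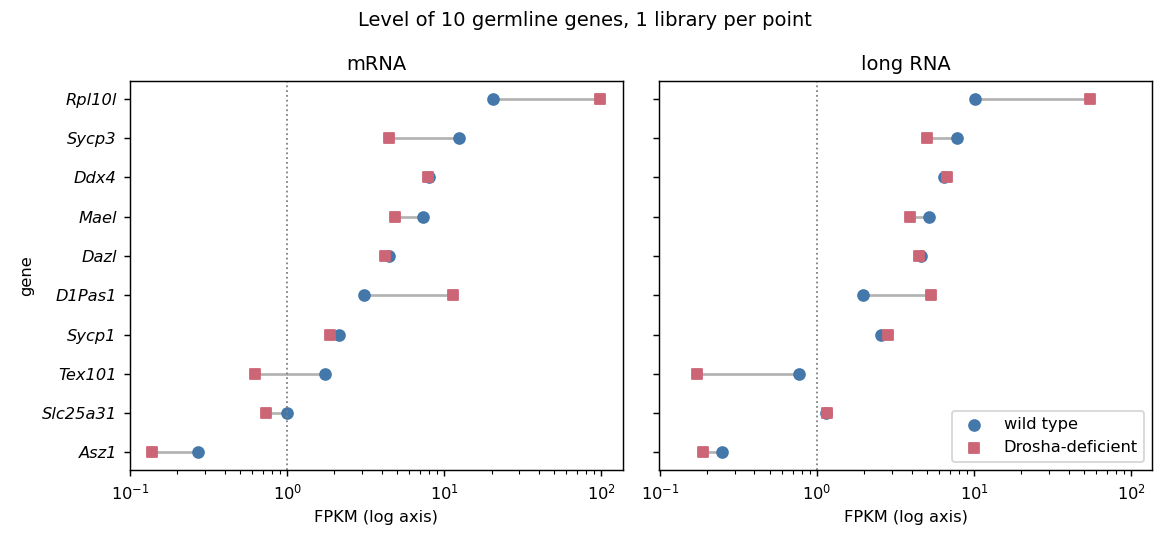
Level of each of the 10 genes in the wild-type (circle) and Drosha-deficient (square) library, in FPKM on a log axis, for mRNA (left) and long RNA (right). The dotted line is the minimum of 1 FPKM; Rpl10l and D1Pas1 move to the right in both fractions, and Sycp3 and Tex101 to the left.

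Several facts of the libraries bear on these values. Drosha stood at 42.1 and 6.22 FPKM in mRNA, and in long RNA at 21.2 and 4.34 FPKM, in the direction of the genotype labels. Of 10 markers of ES cells, 9 differed by less than 2-fold in mRNA and 1, Fgf4, was higher, so the labelled cell type held in both genotypes. Markers of late germ cells were near 0: of 16 such genes 5, including the protamines Prm1 and Prm2, were listed at 0 in both mRNA libraries, and only Zp3, an egg coat gene, passed 1 FPKM. Markers of somatic gonad cells were as low, at most 1.68 FPKM in wild-type and 2.55 FPKM in Drosha-deficient mRNA. Fibroblast markers were lower without Drosha in 9 of 16 genes compared in each fraction, beside 7.93% (mRNA) and 6.89% (long RNA) of all rows. Their summed level went from 576 to 299 FPKM in mRNA, and in long RNA from 324 to 155 FPKM. The highest levels in mRNA were those of Fn1 (209 to 179 FPKM) and Vim (154 to 90.5 FPKM), neither called there. Among the 16 compared, only Twist1 lay above 0, with log2 differences of 0.77 (mRNA) and 0.75 (long RNA), short of the rule. Dcn stayed below 1 FPKM and was not compared. Its level rose from 0.0752 to 0.999 FPKM in mRNA, and in long RNA from 0.0296 to 0.967 FPKM. Among the 20 listed, Lum was at 0 in wild-type mRNA and in Drosha-deficient long RNA. Genes that mark 2-cell-like cells, an early-embryo-like fraction of ES cultures, were higher in 17 of 18 in each fraction. Over all rows 8.64% were higher in mRNA and 6.26% in long RNA. The summed levels were 34.4 and 221 FPKM in mRNA, and in long RNA 22.8 and 214 FPKM. Many of these genes are copies within the Zscan4, Usp17l and Tcstv families. Reads can be shared among such copies, so the genes are not separate observations. D5Ertd577e was at 0 throughout and Tdpoz1 at 0 in wild-type mRNA. The part of either group of cells in the values below was not tested, and in bulk RNA a change in the number of cells of a type cannot be told apart from a change of RNA per cell. By estimate from the lowest values of short rows, the mRNA libraries held about 21700000 and 24400000 fragments and the long RNA libraries 18500000 and 22000000, so that 1 fragment on 1 kb of transcript stood for 0.0460 and 0.0410 FPKM in mRNA, and in long RNA 0.0541 and 0.0455 FPKM.

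The promoters of the members are shown for the genes the results turn on: the higher Rpl10l and D1Pas1, the lower Sycp3, and Dazl and Ddx4, whose values stayed close. Each line gives the 250 bases before the RefSeq transcription start, 5′ to 3′ on the gene's strand (GRCm38.p6), with CG dinucleotides, the sites of methylation, in capitals. They lie at chr12:66284402-66284651 (minus strand), chr1:186967166-186967415 (plus), chr10:88459337-88459586 (plus), chr17:50293621-50293870 (minus) and chr13:112652311-112652560 (minus), in the order printed.
Rpl10l: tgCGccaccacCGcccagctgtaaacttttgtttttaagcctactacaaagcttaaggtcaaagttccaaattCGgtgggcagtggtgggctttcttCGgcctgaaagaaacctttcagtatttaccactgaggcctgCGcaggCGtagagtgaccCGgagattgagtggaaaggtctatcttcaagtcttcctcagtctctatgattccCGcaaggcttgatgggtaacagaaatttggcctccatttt
D1Pas1: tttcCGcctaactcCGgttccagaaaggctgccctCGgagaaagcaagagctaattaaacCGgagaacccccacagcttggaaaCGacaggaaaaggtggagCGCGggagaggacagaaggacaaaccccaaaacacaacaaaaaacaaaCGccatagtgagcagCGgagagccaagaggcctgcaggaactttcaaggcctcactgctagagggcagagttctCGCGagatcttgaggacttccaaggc
Sycp3: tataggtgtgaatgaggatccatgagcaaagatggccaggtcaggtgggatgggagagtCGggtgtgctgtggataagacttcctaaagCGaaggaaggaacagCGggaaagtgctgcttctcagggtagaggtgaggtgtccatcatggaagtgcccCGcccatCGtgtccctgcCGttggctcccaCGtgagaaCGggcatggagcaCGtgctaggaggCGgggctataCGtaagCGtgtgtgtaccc
Dazl: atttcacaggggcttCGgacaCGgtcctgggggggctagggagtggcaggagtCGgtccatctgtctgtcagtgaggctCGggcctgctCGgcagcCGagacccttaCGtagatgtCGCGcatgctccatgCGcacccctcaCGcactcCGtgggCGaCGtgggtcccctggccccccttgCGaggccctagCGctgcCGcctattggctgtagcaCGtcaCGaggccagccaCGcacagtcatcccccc
Ddx4: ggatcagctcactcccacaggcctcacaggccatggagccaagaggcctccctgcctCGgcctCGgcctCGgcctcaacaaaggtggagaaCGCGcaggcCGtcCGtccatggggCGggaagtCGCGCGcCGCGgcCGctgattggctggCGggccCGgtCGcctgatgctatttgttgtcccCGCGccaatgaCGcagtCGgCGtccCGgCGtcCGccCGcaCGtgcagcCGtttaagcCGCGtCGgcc
The lines differ in how densely the capitals stand: 8 CG in Rpl10l, 11 in D1Pas1 and 12 in Sycp3, against 20 in Dazl and 31 in Ddx4. The other members had between 14 (Tex101) and 18 (Mael and Slc25a31). All 10 promoters were found in the RefSeq table; their median was 16 CG, beside 10 in 21263 promoters of protein-coding genes and 6 in all 32851. The 3 members called in mRNA, 2 higher and 1 lower, were those with the fewest CG. This was noticed after the values were seen, over 10 genes, and is a description.

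**Figure D2:**
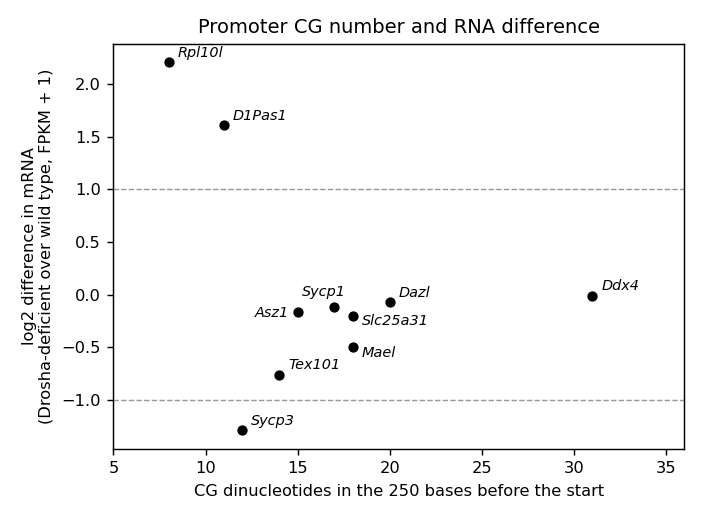
Number of CG dinucleotides in the 250 bases before the start of each of the 10 genes (horizontal) against its log2 difference in mRNA, Drosha-deficient over wild type on FPKM + 1 (vertical); dashed lines mark the 2-fold rule. The genes beyond the rule, Rpl10l and D1Pas1 above and Sycp3 below, have 8, 11 and 12 CG, and Ddx4 with 31 lies at -0.011.

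These windows were also searched on both strands for the E2F core TCCCGC (reverse GCGGGA) and the E-box CACGTG, which reads the same on both strands and is bound by MAX with MGA. Neither motif contains the other, and no match of one overlapped a match of the other in these windows. TCCCGC was present in 5 of the 10 windows, those of Ddx4, Mael, Sycp3, Rpl10l and D1Pas1, and in 21.8% of the windows of protein-coding genes. Counted from the start, the match of Rpl10l lay at -43 and those of D1Pas1 and Sycp3 at -147. CACGTG was present in 5, those of Ddx4, Mael, Sycp1, Sycp3 (2 matches) and Slc25a31, and in 6.63% of the windows of protein-coding genes. Rpl10l and D1Pas1 had the first motif and no match to the second. Both motifs contain a CG, and the members' windows held more CG than those of protein-coding genes (medians 16 and 10). Their share in windows of like CG number was not counted. TCCCGC or its reverse also lay before Rpl10 (-107) and Slc25a5 (-82), widely expressed relatives of members. It was absent before the relatives Ddx3x, Ddx3y and Slc25a4. A match of letters shows no binding.

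Rpl10l (chromosome 12, 66283379 to 66284401, mm10/GRCm38) showed the largest difference of the members. It is an intronless copy of Rpl10, a protein of the large ribosomal subunit, and serves in male germ cells, where the X-linked parent gene is shut off. In mRNA it stood at 20.6 FPKM in wild-type and 98.5 FPKM in Drosha-deficient cells, and in long RNA at 10.1 and 54.8 FPKM. The level was thus higher without Drosha in both fractions, by 4.79-fold and 5.42-fold. The mRNA values correspond to about 457 and 2456 fragments, and counting error alone leaves a range of 4.33 to 5.30 for the ratio (95%, exact binomial); in long RNA, with about 191 and 1232 fragments, the range was 4.66 to 6.35. These intervals, and those of D1Pas1 below, take fragments estimated from FPKM as counts that belong to the row alone. They cover counting error only, and neither the spread between cultures nor a division of reads shared with a parent gene. Among the rows compared in mRNA, Rpl10l moved from above 68.7% of them in wild type to above 93.6% in Drosha-deficient cells.

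D1Pas1 (chromosome 1, 186967416 to 186970627) encodes an RNA helicase of the DEAD-box family and is an intronless, testis-expressed copy of the X-linked gene Ddx3x. It had 3.08 FPKM in wild-type and 11.4 FPKM in Drosha-deficient mRNA, 3.72-fold higher, from about 215 and 895 fragments (95% interval of the ratio 3.19 to 4.33). In long RNA it had 1.98 and 5.31 FPKM, 2.69-fold higher, from about 117 and 375 fragments (2.19 to 3.35). Its log2 differences were 1.61 and 1.08, the latter just past the rule of 1, and with a pseudocount of 5 FPKM the long RNA difference was 0.56 and was not called.

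Both genes have a widely expressed parent of closely similar sequence, so that reads can be shared, and the parents did not behave alike. Rpl10, the parent of Rpl10l on chromosome X, had 89.6 and 45.9 FPKM in mRNA, and in long RNA 50.3 and 29.5 FPKM. Its log2 differences of -0.95 and -0.75 came close to the 2-fold rule and did not pass it. Rpl10l made up 18.7% of the sum of both genes in wild-type mRNA and 68.2% in Drosha-deficient mRNA, and 16.7% and 65.0% in long RNA. The sum itself went from 110 to 144 FPKM in mRNA, and in long RNA from 60.4 to 84.3 FPKM, with log2 differences of 0.39 and 0.47, and was not called. Ddx3x, the parent of D1Pas1, was higher itself, at 120.8 and 343 FPKM in mRNA (2.84-fold) and 163 and 332 FPKM in long RNA (2.04-fold). D1Pas1 stood at 2.48% of the sum with Ddx3x in wild-type mRNA and at 3.23% in Drosha-deficient mRNA, so its level was a small fraction of that of its parent in each genotype. Ddx3y, the Y-linked relative, had 21.4 and 23.6 FPKM in mRNA and was called in neither fraction. Summed with Ddx3x alone, the log2 difference was 1.51 in mRNA and 1.03 in long RNA, past the rule in both. With Ddx3y added to the sum it was 1.37 in mRNA and 0.93 in long RNA, of which the latter misses the rule. The sources used here do not give how the authors' counting divided shared reads, and the part of read sharing in these values was not tested.

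**Figure D3:**
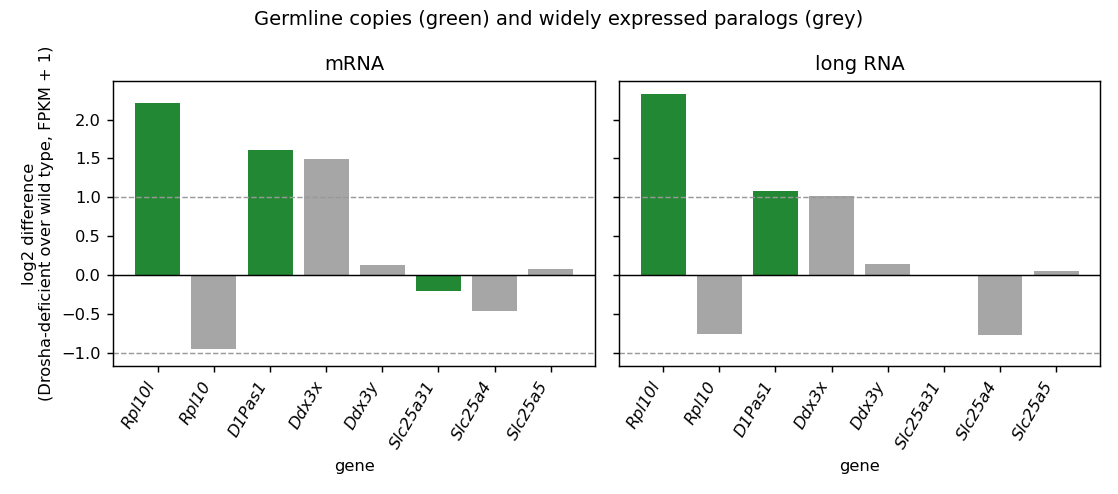
Log2 difference, Drosha-deficient over wild type, of the germline copies Rpl10l, D1Pas1 and Slc25a31 (green) and of their widely expressed paralogs (grey), in mRNA and long RNA; dashed lines mark the 2-fold rule. Rpl10l and Rpl10 point in opposite directions, while D1Pas1 and Ddx3x both point up.

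Meiotic chromosomes pair along the synaptonemal complex, a protein ladder to which Sycp1 contributes the rungs and Sycp3 the lateral rails. Sycp3 (RefSeq: chromosome 10, 88459587 to 88473236) had 12.3 FPKM in wild-type and 4.46 FPKM in Drosha-deficient mRNA, 2.77-fold lower. In long RNA it had 7.78 and 5.04 FPKM, a log2 difference of -0.54 that was not called. With a pseudocount of 5 FPKM the mRNA difference was -0.87 and the call was lost. The last 3724 bases of the gene overlap the neighbour Chpt1, and both rows carry the same span in the files, and whether reads of both genes mix was not tested; Chpt1 had 10.5 and 8.92 FPKM in mRNA, and in long RNA 5.81 and 5.14 FPKM. Sycp1 (chromosome 3, 102818499 to 102936100) was low in every library, at 2.12 and 1.88 FPKM in mRNA, and in long RNA 2.54 and 2.82 FPKM. Its differences were small and opposite in sign between fractions.

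Dazl and Ddx4 are the classical germ cell genes of the set. Dazl (chromosome 17, 50279394 to 50293599) encodes an RNA-binding protein that promotes translation in germ cells, and Ddx4 (chromosome 13, 112598333 to 112652310), also called Vasa, an RNA helicase of germ granules. Dazl stood at 4.42 and 4.17 FPKM in mRNA, and in long RNA at 4.57 and 4.48 FPKM. Ddx4 stood at 7.98 and 7.91 FPKM in mRNA, and in long RNA at 6.40 and 6.73 FPKM. For both genes the wild-type and Drosha-deficient libraries lay close together, with log2 differences between -0.07 and 0.064. Neither gene was silent in wild-type cells: 31.8% (Dazl) and 45.2% (Ddx4) of the rows compared in mRNA had a lower wild-type level.

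Mael and Asz1 act in the piRNA pathway, in which small RNAs guide the silencing of transposons in the germline. Mael (chromosome 1, 166201385 to 166238744) had 7.32 and 4.88 FPKM in mRNA, and in long RNA 5.20 and 3.90 FPKM. Its log2 differences of -0.50 and -0.34 had the same sign in both fractions and did not pass the rule. Asz1 (chromosome 6, 18050964 to 18109061), which sits at the mitochondria where piRNA precursors are processed, was near the limit of the data, at 0.271 and 0.138 FPKM in mRNA, and in long RNA 0.249 and 0.188 FPKM. It reached 1 FPKM in no library and was not compared.

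Slc25a31 and Tex101 are genes of male germ cells. Slc25a31 (chromosome 3, 40708855 to 40725593) encodes an ADP/ATP carrier of the inner mitochondrial membrane used in sperm, and Tex101 (chromosome 7, 24668012 to 24672050) a protein anchored to the germ cell surface. Slc25a31 passed the minimum narrowly, with 1.003 and 0.738 FPKM in mRNA, and in long RNA 1.15 and 1.15 FPKM, and its somatic paralogs Slc25a4 (190.6 and 138 FPKM in mRNA) and Slc25a5 (199 and 209.6 FPKM) were far more abundant. Tex101 had 1.75 and 0.623 FPKM in mRNA, a log2 difference of -0.76, and 0.770 and 0.173 FPKM in long RNA, below the minimum in both libraries. Its ratio without the pseudocount was 2.81-fold lower in mRNA, so the missing call rests on the pseudocount at this low level; with one of 0.1 FPKM the difference was -1.36 and passed the rule.

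**Figure D4:**
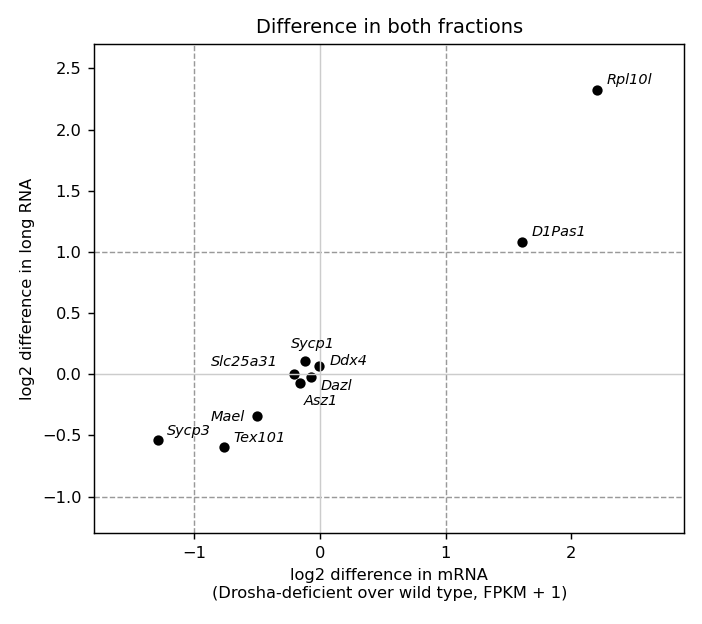
Log2 difference of each of the 10 genes in mRNA (horizontal) against long RNA (vertical), Drosha-deficient over wild type on FPKM + 1; dashed lines mark the 2-fold rule. Only Rpl10l and D1Pas1 lie beyond the rule on both axes, and Asz1 and, in long RNA, Tex101 are plotted although they did not reach 1 FPKM.

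The order of wild-type levels in mRNA, compared per transcript length, was Rpl10l, Sycp3, Ddx4, Mael, Dazl, D1Pas1, Sycp1, Tex101, Slc25a31 and Asz1, from 20.6 to 0.271 FPKM. With 1 library each, the spread that would separate neighbours in this order is unknown. Rpl10l and Sycp3 lay above the median wild-type level of all rows compared in mRNA, 9.61 FPKM, and the other 8 below it. RNA of 9 members reached 1 FPKM in wild-type mRNA, Slc25a31 narrowly at 1.003 FPKM, and of 8 members in wild-type long RNA. Whether the promoters were methylated in these cells was not tested. In the authors' deposited tables none of the 10 members was marked significant in either fraction. The lowest q-values were those of Rpl10l, 0.383 in mRNA and 0.370 in long RNA, and in each of the authors' deposited tables they come from Cuffdiff with 1 library per genotype, so they compare libraries and not genotypes.

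Of the repressors that act on such promoters, E2f6 had 12.2 and 11.6 FPKM in mRNA, Pcgf6 35.8 and 36.9, Mga 30.0 and 45.8, and Max 36.6 and 39.0 FPKM, none of which was called; the most abundant of the list, Hdac2 (90.8 and 126 FPKM), Wdr5 (79.6 and 86.2 FPKM) and Ehmt2 (49.8 and 69.9 FPKM), were not called either. Of 19 genes of the Polycomb complex and of the H3K9 methyltransferases compared in mRNA, 1 was higher and none lower (median 0.38), and of 18 in long RNA 1 was higher (median 0.29). The higher genes were Rybp, a subunit that supports the complex, in mRNA (6.79 and 18.7 FPKM) and Hdac1, a histone deacetylase, in long RNA (2.32 and 5.69 FPKM). L3mbtl2 had 36.8 and 74.0 FPKM in mRNA, and in long RNA 27.7 and 55.6 FPKM. Its ratio was 2.01 in both, and the missing calls rest on the pseudocount (0.99 and 0.98). In each fraction 5 genes compared lay below 0. Over all rows 8.64% were higher and 7.93% lower in mRNA, and 6.26% and 6.89% in long RNA, so the counts of called genes say little about the list. Among 11 genes of DNA methylation in mRNA, Dnmt3a (31.1 and 70.6 FPKM) and Dnmt3b (39.0 and 94.8 FPKM), which methylate new sites, were higher, beside 8.64% of all rows. Dnmt1, which copies the marks at replication, had 55.9 and 79.6 FPKM and its partner Uhrf1 105 and 101 FPKM. Hells, a chromatin remodeller needed for methylation, had 141 and 149 FPKM and Dnmt3l, a cofactor of the enzymes for new marks, 107 and 82.7 FPKM. These 4 genes were not called. In long RNA none of 10 genes of this list was called, beside 6.26% higher and 6.89% lower over all rows, shares at which this says little.

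Other genes of the same pathways were counted without the 10 members. Of meiosis genes 7 of 16 compared were lower in mRNA and none was higher, with a median log2 difference of -0.77. In long RNA 1 of 14 was lower, beside 6.89% of all rows, with a median of -0.33. On the log2(FPKM + 1) scale the largest differences in mRNA were those of the cohesin subunit Stag3 (20.4 and 5.58 FPKM), the recombinase Dmc1 (8.49 and 2.52 FPKM) and Meiob (5.43 and 1.72 FPKM), a partner of single-stranded DNA in recombination. By the ratio of FPKM alone, the mismatch repair relative Msh5, at 2.20 and 0.524 FPKM, came before them (4.198-fold lower). Rec8, the cohesin subunit that holds sister chromatids together in meiosis, was the gene lower in both fractions (mRNA 42.7 and 17.8 FPKM, long RNA 12.1 and 5.11 FPKM) and is named after its values were seen. The share of 7 in 16 stood beside 7.93% lower over all rows. With a pseudocount of 5 FPKM 2 of these genes were lower, beside 2.53% of all rows at that setting. Sycp3 was called lower in mRNA, as these 7 genes were. Fibroblast markers were lower in 9 of 16 genes in mRNA and in 9 of 16 in long RNA. In long RNA Sycp3 and, of these 7 meiosis genes, all but Rec8 were not called, yet each stood below its wild-type level. Stag3 had 12.7 and 6.28 FPKM there (2.02-fold lower), Syce3 3.09 and 1.11 FPKM (2.80-fold), and Hormad2 6.97 and 5.11 FPKM (1.36-fold). Msh5 was below 1 FPKM in both long RNA libraries. Of the 14 meiosis genes compared in long RNA, 10 lay below 0 and 4 above. A link between these differences was not tested.

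Of the piRNA pathway 1 of 15 genes was higher in mRNA and none lower (median -0.28), and in long RNA 1 of 14 was lower (median -0.37). Over all rows 8.64% were higher and 7.93% lower in mRNA, and 6.26% and 6.89% in long RNA. In lists this short, counts of 0 or 1 at such shares say little about the pathway. Mybl1, the transcription factor that drives piRNA precursors in the testis, had 5.15 and 14.5 FPKM in mRNA and was the higher gene. Tex15, a silencing factor of male germ cells, was the lower one in long RNA, at 4.403 and 1.597 FPKM. The most abundant in wild-type mRNA, Tdrd12 (48.7 and 31.5 FPKM), Pld6 (9.54 and 5.79 FPKM) and Gpat2 (6.15 and 2.81 FPKM), were not called. Among other germline genes reported as silenced by methylation 3 of 19 were lower in mRNA and none was higher (median -0.22). Over all rows 7.93% were lower and 8.64% higher. In long RNA 1 of 16 was lower (median -0.20), beside 6.89% of all rows. The lists overlap, so these counts are not separate. Hormad1 and Syce1 are also on the meiosis list, and Mov10l1, Stk31 and Tdrd1 on that of the piRNA pathway. Tuba3a, Tuba3b and Usp26 are also among the testis-expressed genes counted further below. Usp26, a testis deubiquitinase on chromosome X, was lower in both fractions, at 3.61 and 0.426 FPKM in mRNA, and in long RNA 8.01 and 0.687 FPKM. Fkbp6, a chaperone of the piRNA pathway, had 4.67 and 1.59 FPKM, and Xlr3a, an X-linked gene of a family with similar copies, 3.42 and 1.03 FPKM in mRNA. Among the genes of these 3 lists that reached 1 FPKM, none outside the 10 members was called higher in both fractions. The share of all rows higher in both fractions was not counted, so nothing about the lists follows from this. Below that minimum, Gm13128 was listed at 0.103 and 0.799 FPKM in mRNA, and in long RNA at 0.152 and 0.971 FPKM. Crisp1 was listed at 0.320 and 0.853 FPKM in mRNA, and in long RNA at 0.189 and 0.546 FPKM. Both are named after their values were seen.

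**Figure D5:**
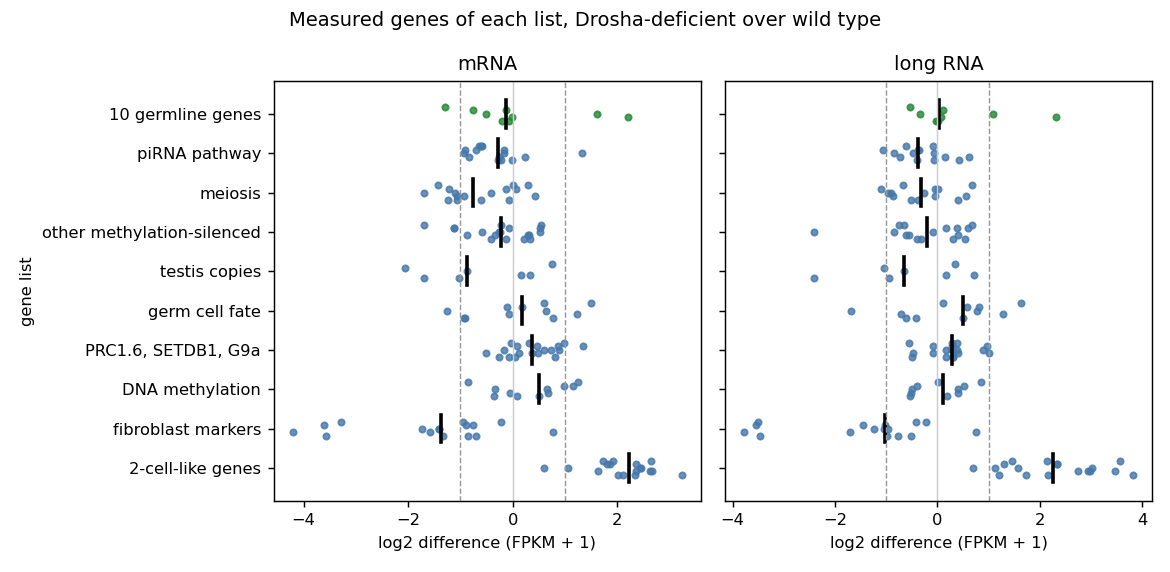
Log2 difference, Drosha-deficient over wild type on FPKM + 1, of every gene compared on each list (points) with the list's median (black bar), in mRNA and long RNA; dashed lines mark the 2-fold rule. Medians in mRNA were -0.12 (10 germline genes), -0.28 (piRNA pathway), -0.77 (meiosis) and 0.19 (germ cell fate), and the 2-cell-like genes lie above 0.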

How the data were processed

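RNA of wild-type and Drosha-deficient mouse ES cells was taken from the deposited Cuffdiff tables of mRNA and long RNA, 1 library per genotype and fraction. Per the file headers, value 1 is wild type and value 2 Drosha-deficient, in FPKM computed by the authors. Per the submitters' processing notes, the tools were TopHat2 2.0.10, Cufflinks 2.1.1 and Cuffdiff, with mm10/GRCm38; the annotation, the scaling of libraries, the use of strand and the treatment of reads with several matches are in none of the sources used here. The p-values and q-values in the authors' deposited tables rest on 1 library per genotype. The labels name no long RNA sample; by elimination, that table was linked to those titled total RNA. Not analysed here were 3 Dnmt1-deficient RNA samples and 3 methylation samples.

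No count model was used, since the tables hold FPKM and no counts. A pseudocount of 1 FPKM was added to both levels before the log2 of their ratio (Drosha-deficient over wild type) was taken, which understates differences of low genes; single folds are ratios of FPKM. Rows with status OK and at least 1 FPKM in 1 library were compared, over the whole table, and called at 2-fold. The value of 1 fragment was read from the lowest values of rows 0.8 to 3.5 kb long, and ratio intervals are 95% exact binomial. Promoters and neighbouring genes came from RefSeq tables of GRCm38. All 10 members were named; of the other lists, up to 3 higher and 3 lower genes with the largest differences, or with under 3 calls the most abundant. The members and lists were chosen with earlier results of these data known. Alternatives were pseudocounts of 0.1 and 5 FPKM, no minimum and one of 5 FPKM, all rows except failed ones, 2 other scalings, a fold rule of 1.5 and, chosen after seeing the data, paralog rows summed. Python 3.11.15, numpy 2.4.6, pandas 2.3.3, scipy 1.17.1 and matplotlib 3.10.9 were used.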

Additional observations from a re-analysis of the deposited data

Results flagged for a closer look

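The short RNA libraries belong to no comparison above. In them 8 of the 10 members stayed below 1 FPKM in both genotypes. Rpl10l stood at 0.367 FPKM in wild type and 3.63 FPKM in Drosha-deficient cells, about 1 and 11 fragments. D1Pas1 was listed at 0 in wild type and stood at 1.0 FPKM in Drosha-deficient cells, about 10 fragments. Both are set apart here because a signal above that of the wild-type library appeared in data outside the main measurement; these are the genes that were higher in mRNA and long RNA. In short RNA Rpl10 had 33.2 and 24.7 FPKM and Ddx3x 26.6 and 35.2 FPKM, and the part of read sharing was not tested.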

How the results depend on the processing

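Counts refer to Drosha-deficient over wild type. With a pseudocount of 0.1 FPKM, 2 members were lower in mRNA (Sycp3 and Tex101), and 4 piRNA pathway genes in mRNA and 3 in long RNA and 3 meiosis genes in long RNA were lower, beside 12.8% (mRNA) and 11.4% (long RNA) of all rows. With one of 5 FPKM, no member was lower in mRNA and 1 member, Rpl10l, was higher in long RNA. At this setting 2 meiosis genes were lower in mRNA and 0 in long RNA. Of the piRNA pathway, 0 genes were higher in mRNA and 0 lower in long RNA. Of all rows, 3.74% were higher and 2.53% lower in mRNA, and 2.26% and 2.40% in long RNA. With a minimum of 5 FPKM the median of the 5 members left in mRNA was -0.011. In long RNA 0 of the 2 piRNA pathway genes left were lower, beside 7.18% of all rows. With a fold rule of 1.5, 2 members were lower in mRNA, 7 and 4 piRNA pathway genes were lower in mRNA and long RNA and 1 higher in long RNA, and 5 meiosis genes were lower and 1 higher in long RNA; of all rows 19.4% were lower in mRNA, and in long RNA 17.3% were lower and 13.4% higher. With paralog rows summed, 1 member was higher in mRNA and 0 in long RNA, beside 8.64% and 6.24% of all rows. Each of these settings changes the rule or the rows. Why the counts moved was not tested, nor was the part of read sharing in the summed rows. The other scalings and no minimum moved no count beyond 1.5 times and no median by 0.1. Taking all rows except failed ones kept the same 14752 (mRNA) and 13933 (long RNA) rows as the main rule, so it could move nothing. No called member changed sign. No paired analysis was possible because each group has 1 sample. Values below 1 FPKM rest on few fragments, and the long RNA table's link to its samples rests on elimination.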

Other observations

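Genes listed for primordial germ cell fate, the earliest step of the germline, went both ways. Of 11 compared, 2 were higher and 1 lower in mRNA, beside 8.64% and 7.93% of all rows. The same 3 genes were called in long RNA, beside 6.26% of all rows higher and 6.89% lower. Prdm14, a factor that specifies germ cells and represses DNA methyltransferase genes in naive ES cells, had 4.05 and 10.9 FPKM in mRNA, and in long RNA 2.65 and 7.93 FPKM. Ddit4l, which is on the list but is an inhibitor of growth signalling, had 10.4 and 31.5 FPKM in mRNA. Tfap2c, a factor that acts with Prdm14 in germ cell specification, was lower, at 26.3 and 10.4 FPKM in mRNA, and in long RNA 16.9 and 4.57 FPKM.

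Of other testis-expressed genes, mostly copies or relatives of widely expressed genes, 7 were compared in each fraction. None was called higher, beside 8.64% of all rows in mRNA and 6.26% in long RNA, a share at which a count of 0 in 7 says little. In mRNA 3 were lower and in long RNA 2, beside 7.93% and 6.89% of all rows. Cox6b2, a testis subunit of cytochrome c oxidase, had 66.7 and 15.3 FPKM in mRNA, and in long RNA 10.2 and 4.41 FPKM, and Ldhc, the lactate dehydrogenase of sperm, 5.48 and 2.19 FPKM in mRNA. Usp26, counted among the methylation-silenced genes too, was the other lower gene.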
